A study of Drosophila melanogaster with 16 samples.

Results

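Condensin and cohesin are ring-shaped protein complexes that hold and fold chromosomes, and the genes for 10 of their subunits were followed here in neural stem cells of the fly brain and their daughters. The 10 genes were taken by name from the subunits of the mitotic complexes (SMC2, glu, barr, Cap-D2, Cap-G and Cap-H2 of condensin, and SMC1, SMC3, vtd and SA of cohesin). They are 10 of the 16364 genes in the deposited count tables, and all 10 passed the filter on low counts.

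Messenger RNA with a poly(A) tail was sequenced from Drosophila melanogaster ganglion mother cells (GMCs), the daughters that type I neuroblasts bud off, and from those neuroblasts (NBs), which are neural stem cells. All cells came from larvae of 1 genotype, UAS-dcr2; ase-GAL4, UAS-stinger::GFP, labelled wild type, in which the asense driver makes a nuclear GFP and an added Dicer-2 in NBs and the cells born from them. NBs were sorted by fluorescence from wandering larvae raised at 25 °C, cultured for 1.5, 3 or 5 h, and sorted again to part the GMCs born in culture from the NBs. There were 3, 2 and 2 GMC libraries at 1.5, 3 and 5 h, and 3 NB libraries at each age, 16 in all.

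Both complexes share 1 plan: a pair of long SMC proteins forms the arms of a ring, a kleisin subunit closes it, and proteins built of HEAT repeats bind the kleisin. Condensin shapes chromosomes for mitosis. Condensin I and condensin II share the SMC pair SMC2 and glu (the fly SMC4) and differ in the kleisin, which is barr in condensin I and Cap-H2 in condensin II. Cohesin holds sister chromatids together from their replication until anaphase and also forms chromatin loops in cells between divisions. In flies, condensin II and cohesin act outside mitosis as well, in the unpairing of homologous chromosomes and in the pruning of neurons.

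Libraries held 6899670 to 21207182 reads in genes, and the 10 genes had 506 to 15441 reads each per library. The precision of a level was therefore limited by the spread between libraries more than by counting. Whether replicates were separate cultures is not stated in the labels, and the p-values then cover only the spread from library to library, part of which may be technical. The names of the deposited files give each age a flow cell of its own, so age and run cannot be told apart, whereas GMCs and NBs of 1 age shared a run. The NB library of 5 h replicate 1 stood apart from its replicates: its score on the first principal component was 38.65, against -78.97 and -66.05 in the other two. The labels were checked against markers. Of 9 GMC and neuron markers, 9, 8 and 4 were higher in GMCs at 1.5, 3 and 5 h and 0 lower, by edgeR. The GMC marker nerfin-1 was higher at every age, by 6.83, 6.64 and 6.22 on the log2 scale, whereas the neuron markers brp, nSyb, Syt1 and nrv3 had negative values at 5 h, -0.79, -1.43, -1.09 and -0.91, that were not called. The GMC marker pros was also not called by edgeR at 5 h, with means of 1190 CPM in GMCs and 784 CPM in NBs. At 1.5 h its means were 5740 CPM in GMCs and 699 CPM in NBs. Of 8 NB markers, 6, 5 and 3 were lower in GMCs at 1.5, 3 and 5 h, among them dpn at every age, by -1.69, -1.68 and -1.20. Of the NB markers 2 went against the label at the later ages: ase, whose driver marks the cells, was higher in GMCs by 1.38 at 3 h and 1.71 at 5 h, and wor by 0.75 and 1.92. The summed level of the 8 NB markers did not separate the cell types at 5 h, at 3470 to 3900 CPM in GMCs and 3090 to 4390 CPM in NBs.

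GMCs had a higher relative level of mRNA for part of both complexes, and the list of subunits that were higher was longer at the later ages. Levels are scaled to library size and are not amounts per cell. Cap-H2 alone was called at 1.5 h (adjusted p under 0.05 in edgeR's quasi-likelihood test over 10913 genes). Cap-G, SMC1 and SA joined it at 3 h, and Cap-D2 and barr at 5 h. The shared condensin pair SMC2 and glu, the cohesin kleisin vtd and SMC3 were not called at any age. In such bulk libraries, fewer cells of a type and less RNA per cell cannot be told apart.

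The 1 of 10 subunits higher in GMCs at 1.5 h is close to the background of 8.59% of all genes called higher. At 3 h 4 of 10 were higher, against 10.2% of all genes, and at 5 h 6 of 10, against 14.8%. By edgeR and by DESeq2 0 of 10 were lower at 1.5, 3 or 5 h, against 8.97%, 10.5% and 14.0% of all genes by edgeR, and SMC2 at 1.5 h was the 1 of the 10 below 0 at an unadjusted p under 0.05. The condensin II gene Cap-D3, which is outside the 10, was called lower at 1.5 h (-0.55). The median log2 fold change of the 10 subunits was 0.04, 0.37 and 1.09 at 1.5, 3 and 5 h, and that of all genes 0.04, 0.07 and -0.12. Levels in GMCs and NBs were without overlap for 4, 6 and 7 of the 10 subunits, against 42.6%, 50.1% and 47.9% of all genes. The authors' deposited table gives an adjusted p under 0.05 to 1, 4 and 6 of the subunits at 1.5, 3 and 5 h, all higher in GMCs.

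**Figure D1:**
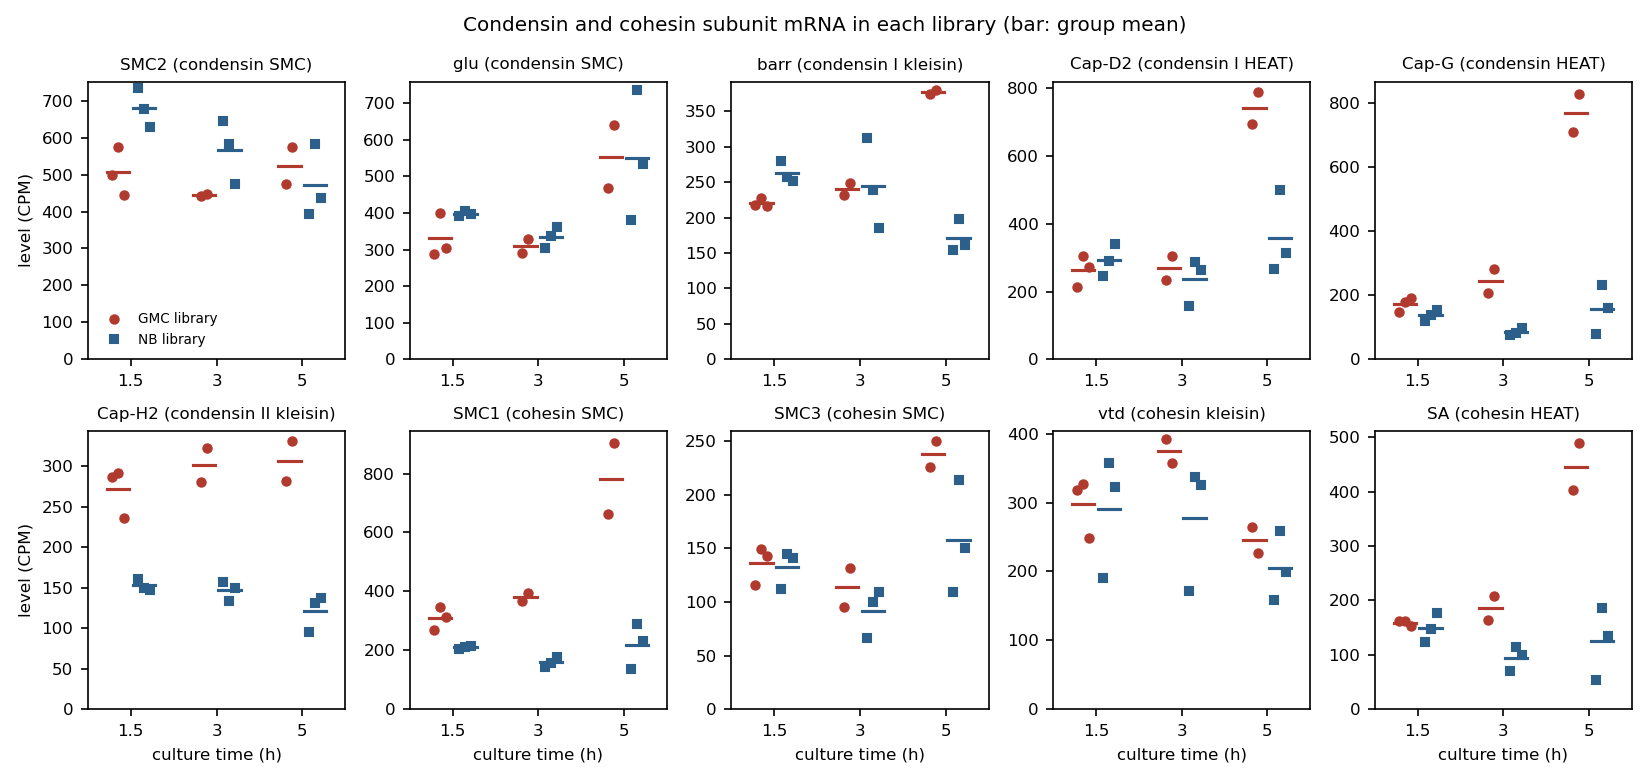
Level of each subunit (CPM, y axis from 0) in every library against culture time, with GMC libraries as circles left of NB libraries as squares and the group mean as a bar. Cap-G, SMC1 and SA are highest in both GMC libraries of 5 h, whereas SMC2 and glu overlap between the cell types at that age.

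Condensin is described from its SMC core outward. SMC2 (FBgn0027783, chromosome 2R, 14848621 to 14852653) encodes the SMC protein common to both condensins. Positions here are those of the deposited tables, which equal the gene bodies of the BDGP6 annotation for all 10 genes. Its level, in CPM (counts scaled to the TMM-adjusted library sizes), was 498, 576 and 445 in GMCs of 1.5 h, against 735, 678 and 628 in NBs. All 3 GMC libraries lay below all 3 NB libraries, but the log2 fold change of -0.43 (95% interval -0.80 to -0.05) did not pass the adjustment (adjusted p = 0.113). At 3 h SMC2 stood at 443 and 447 CPM in GMCs, against 645, 584 and 474 CPM in NBs, again without overlap and again not called (-0.35, adjusted p = 0.241). At 5 h the groups overlapped, with 474 and 575 CPM in GMCs and 394, 584 and 437 CPM in NBs, and the interval of the difference ran from -0.26 to 0.57.

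Its partner glu (gluon, FBgn0015391, chromosome 2L, 16733617 to 16738388) also gave no call. Levels were 289, 400 and 303 CPM in GMCs of 1.5 h, against 391, 404 and 398 CPM in NBs. The 3 NB libraries lay close together, around the highest GMC library. At 3 h GMCs had 290 and 329 CPM and NBs 304, 336 and 361 CPM. At 5 h GMCs had 467 and 641 CPM and NBs 380, 737 and 533 CPM, the widest NB range of the 3 ages for this gene. The log2 fold change at 5 h was 0.01 with an interval of -0.49 to 0.51. The log2 fold changes of Cap-G, SMC1, SA, barr, Cap-D2 and Cap-H2 at that age lie outside it. The interval of Cap-D2, 0.46 to 1.63, overlaps that of glu, and differences between genes were not tested.

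The condensin I kleisin barr (barren, FBgn0014127, chromosome 2L, 20058163 to 20061370) changed its place between the cell types with age. At 1.5 h the GMC libraries, at 218, 228 and 217 CPM, lay below the NB libraries, at 280, 258 and 252 CPM, and the log2 fold change of -0.25 was not called (adjusted p = 0.346). At 3 h GMCs had 232 and 249 CPM, inside the NB range of 312, 239 and 185 CPM. At 5 h GMCs had 375 and 381 CPM, against 155, 198 and 161 CPM in NBs. Both GMC libraries were then above every NB library, 2.21-fold higher on average (log2 1.14, SE 0.187, adjusted p = 0.000242).

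The HEAT-repeat subunit Cap-D2 (FBgn0039680, chromosome 3R, 29675651 to 29680257) belongs to condensin I and was not called at 1.5 or 3 h. Its level was 213, 306 and 273 CPM in GMCs of 1.5 h, against 246, 290 and 341 CPM in NBs, and 235 and 306 CPM in GMCs of 3 h, against 158, 288 and 264 CPM in NBs. The groups overlapped at both ages. At 5 h GMCs had 694 and 789 CPM, against 266, 500 and 313 CPM in NBs, a 2.06-fold higher level without overlap (log2 1.04, SE 0.275, adjusted p = 0.00901). Without the GMC library of 5 h replicate 2 the log2 fold change was 0.95 and no longer called (adjusted p = 0.0791).

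Cap-G (FBgn0259876, chromosome 2R, 13133142 to 13142820) encodes the other HEAT-repeat subunit and had the largest log2 fold change of the 10 subunits at 3 and 5 h. At 1.5 h GMCs had 146, 179 and 192 CPM and NBs 118, 138 and 155 CPM, with the lowest GMC library inside the NB range and no call (0.33, adjusted p = 0.455). At 3 h GMCs had 207 and 282 CPM, against 74.6, 82.6 and 97.0 CPM in NBs. At 5 h GMCs had 708 and 828 CPM, against 80, 231 and 160 CPM in NBs. Every GMC library of 3 and 5 h lay above every NB library of its age. The level was 2.89-fold higher in GMCs at 3 h (log2 1.53, SE 0.299, adjusted p = 0.00174) and 4.88-fold higher at 5 h (log2 2.29, SE 0.300, adjusted p = 3.69e-05).

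Cap-H2 (FBgn0037831, chromosome 3R, 10761310 to 10766756) encodes the kleisin of condensin II and was the subunit called higher in GMCs at each of the 3 ages. GMCs had 286, 292 and 236 CPM at 1.5 h, against 161, 150 and 147 CPM in NBs. At 3 h GMCs had 280 and 322 CPM, against 157, 134 and 150 CPM in NBs, and at 5 h 282 and 331 CPM, against 94.6, 131 and 137 CPM in NBs. The lowest GMC library of any age lay above the highest NB library of any age. The log2 fold changes were 0.83, 1.04 and 1.34 at 1.5, 3 and 5 h (SE 0.16, 0.176 and 0.176, adjusted p = 0.00212, 0.000630 and 3.69e-05). Of its exon sequence, 11.5% overlaps genes on the opposite strand (asRNA:CR45016 and TfIIFbeta), and reads there cannot be told apart because the sources used here do not give a strand setting for the counting.

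The other condensin II subunit, the HEAT-repeat gene Cap-D3, was lower in GMCs at 1.5 h. Its mean level was 34.0 ± 2.63 CPM in GMCs of 1.5 h and 49.9 ± 4.63 CPM in NBs (SD, n = 3 each), or -0.55 as a log2 fold change (adjusted p = 0.0178). At 3 h the log2 fold change was -0.31 (adjusted p = 0.220) and at 5 h 0.25 (adjusted p = 0.285). Opposite-strand genes cover 20.3% of the exon sequence of Cap-D3.

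Of the cohesin ring, SMC1 (FBgn0040283, chromosome 3R, 24058287 to 24062815) encodes the partner of the SMC3 protein and was called higher in GMCs at 3 and 5 h. SMC1 had 268, 346 and 312 CPM in GMCs of 1.5 h, against 205, 211 and 215 CPM in NBs. The groups did not overlap, but the log2 fold change of 0.55 (interval 0.10 to 1.01) missed the threshold in the fit of all groups (adjusted p = 0.0913). It passed when only the 2 groups compared were fitted (adjusted p = 0.00898), without the 5 h libraries (adjusted p = 0.0101), and when the abundant RNA CR43283 was left out of the scaling (0.61, adjusted p = 0.0495). At 3 h SMC1 had 368 and 395 CPM in GMCs, against 144, 155 and 176 CPM in NBs, 2.41-fold higher (log2 1.27, SE 0.238, adjusted p = 0.00128). At 5 h it had 661 and 905 CPM in GMCs, against 136, 290 and 232 CPM in NBs, 3.57-fold higher (log2 1.84, SE 0.238, adjusted p = 3.30e-05). The GMC libraries were above all NB libraries at each age.

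SMC3 (FBgn0015615, chromosome X, 16588996 to 16593439) had 116, 149 and 143 CPM in GMCs of 1.5 h and 112, 145 and 141 CPM in NBs, nearly the same range. At 3 h GMCs had 95.3 and 132 CPM and NBs 66.4, 100 and 109 CPM. At 5 h GMCs had 226 and 250 CPM, against 109, 214 and 150 CPM in NBs. Both GMC libraries of 5 h were the highest, but the log2 fold change of 0.59 (interval 0.05 to 1.14) was not called (adjusted p = 0.0976). It was called without CR43283 in the scaling (0.69, adjusted p = 0.0412), with the trend on gene length removed (0.56, adjusted p = 0.0450) and without the NB library of 5 h replicate 2 (0.88, adjusted p = 0.0160).

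The kleisin of mitotic cohesin is vtd (verthandi, the fly Rad21, FBgn0260987, chromosome 3L, 27136525 to 27157999), the subunit that separase cuts at anaphase. It had 318, 327 and 248 CPM in GMCs of 1.5 h and 191, 357 and 323 CPM in NBs. At 3 h it had 392 and 357 CPM in GMCs and 172, 337 and 326 CPM in NBs, and at 5 h 265 and 227 CPM in GMCs and 159, 259 and 199 CPM in NBs. The GMC libraries lay above all NB libraries at 3 h only, by a narrow margin over NB replicate 2. The log2 fold changes of 0.03, 0.43 and 0.26 at 1.5, 3 and 5 h were not called (adjusted p = 0.955, 0.340 and 0.539).

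SA (stromalin, listed as SA1 in the reference, FBgn0020616, chromosome 2L, 6950421 to 6954586), the HEAT-repeat protein that binds the kleisin, was higher in GMCs at the later ages. GMCs of 1.5 h had 162, 162 and 152 CPM, inside the NB range of 123, 147 and 176 CPM. At 3 h GMCs had 164 and 208 CPM, against 69.2, 114 and 99.5 CPM in NBs, a log2 fold change of 0.98 (SE 0.338) close to the threshold (adjusted p = 0.0488). That call was lost with median-ratio scaling (0.92, adjusted p = 0.0572), without CR43283 in the scaling (0.88, adjusted p = 0.0608), and without the NB library of 3 h replicate 1 (0.81, adjusted p = 0.135) or replicate 3 (1.02, adjusted p = 0.0836). It was also lost without the GMC library of 3 h replicate 1 (1.15, adjusted p = 0.106) or replicate 2 (0.79, adjusted p = 0.276). At 5 h GMCs had 402 and 489 CPM, against 54.2, 185 and 134 CPM in NBs, 3.58-fold higher (log2 1.84, SE 0.338, adjusted p = 0.000643). Of the exon sequence of SA, 5.34% overlaps CG13775 on the opposite strand.

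The NB library that stood apart, 5 h replicate 1, was the lowest of its group for all 10 subunits, so the 5 h differences were also computed without it. The 6 calls at 5 h were kept. The log2 fold change was then 1.97 for Cap-G, 1.59 for SMC1, 1.48 for SA, 1.19 for Cap-H2, 1.07 for barr and 0.87 for Cap-D2. The adjusted p of these 6 ran up to 0.0306, that of Cap-D2. The value was -0.20 for glu and 0.39 for SMC3, neither called.

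**Figure D2:**
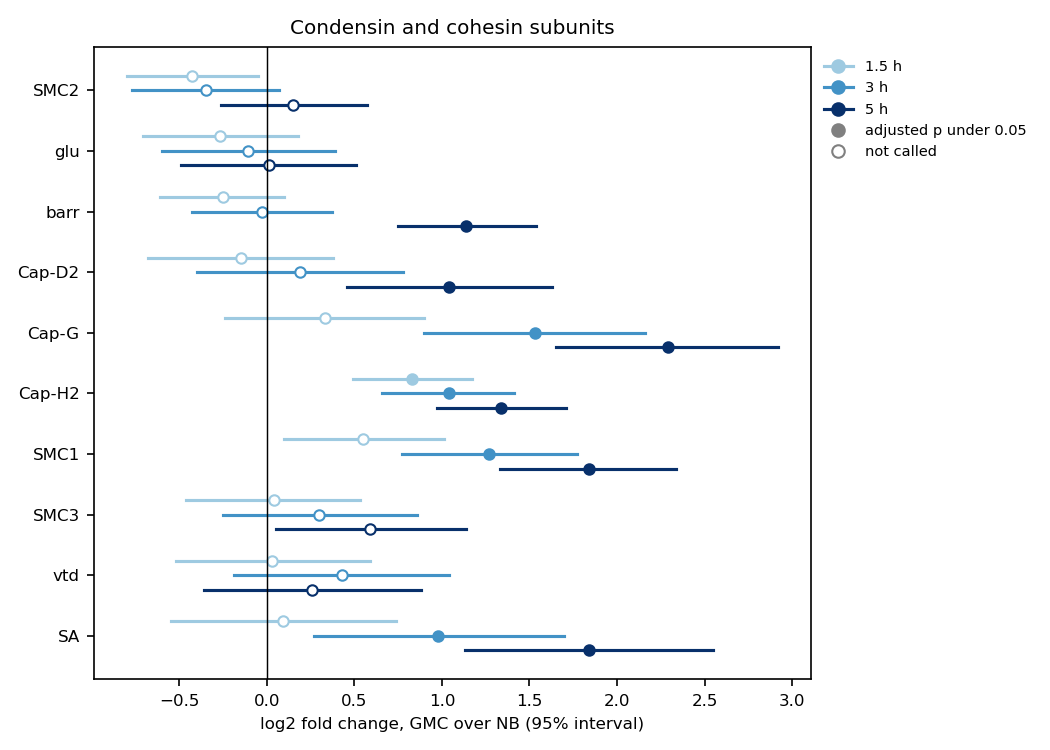
Log2 fold change of GMCs over NBs (x axis) for each subunit at 1.5, 3 and 5 h, with 95% intervals as lines and filled points where the adjusted p is under 0.05. Cap-G is at 0.33 at 1.5 h, 1.53 at 3 h and 2.29 at 5 h, whereas SMC2, glu, SMC3 and vtd have open points at all ages.

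Whether the difference between GMCs and NBs itself differed between ages was tested as an interaction. Between 1.5 and 3 h no subunit was called by edgeR or by DESeq2, and edgeR called 0.00% of all genes (683 at an unadjusted p under 0.05, and 32 by DESeq2). Of the subunits, 2 of 10 had an unadjusted p under 0.05. These were Cap-G, with a change of 1.20 on the log2 scale (interval 0.35 to 2.05, adjusted p = 0.654), and SMC1, with 0.72 (interval 0.03 to 1.40, adjusted p = 0.792). Between 1.5 and 5 h the difference grew for 5 of 10, against 6.59% of all genes. It grew by 1.96 for Cap-G (SE 0.403, adjusted p = 0.00505), by 1.75 for SA (SE 0.455, adjusted p = 0.0192) and by 1.39 for barr (SE 0.252, adjusted p = 0.00208). It grew by 1.28 for SMC1 (SE 0.321, adjusted p = 0.0155) and by 1.19 for Cap-D2 (SE 0.373, adjusted p = 0.0446). Without the GMC library of 5 h replicate 2, SMC1 (1.05, adjusted p = 0.102) and SA (1.60, adjusted p = 0.0855) were no longer called. The Cap-D2 call was lost in 9 of the 18 other settings, among them without the NB library of 5 h replicate 1 (1.01, adjusted p = 0.0783).

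For Cap-H2, already higher at 1.5 h, the change of the difference from 1.5 to 5 h was 0.51 (interval 0.01 to 1.02, adjusted p = 0.166). Between 3 and 5 h barr was the subunit called, with a growth of 1.17 (SE 0.268, adjusted p = 0.0267), so 1 of 10 against 1.70% of all genes. That call was lost when only the groups compared were fitted (1.10, adjusted p = 0.148), and in 5 of the fits with 1 library left out. For Cap-G the change over the same interval was 0.76 and was not called (interval -0.15 to 1.66).

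Within GMCs no subunit differed between 3 h and 1.5 h, with 0 calls by edgeR and by DESeq2 and 0 at an unadjusted p under 0.05, whereas 2.96% of all genes were called in either direction. At 5 h 7 of 10 were higher than at 1.5 h, against 17.0% of all genes. The log2 fold change was 2.16 for Cap-G, 1.49 for Cap-D2, 1.49 for SA, 1.34 for SMC1, 0.81 for SMC3, 0.78 for barr and 0.74 for glu. SMC2 (0.05), Cap-H2 (0.18) and vtd (-0.27) were not called. The count of 7 fell to 5 without the GMC library of 1.5 h replicate 1, and to 5 without replicate 3. The same 7 were higher at 5 h than at 3 h, against 17.2% of all genes, with log2 fold changes of 0.66 for barr up to 1.65 for Cap-G. That count rests on few libraries: it was 1 without the GMC library of 3 h replicate 1, 4 without 3 h replicate 2 and 2 without 5 h replicate 2.

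Within NBs few subunits were called. Between 3 h and 1.5 h no subunit was called by edgeR or DESeq2, against 0.101% of all genes, although all 10 log2 fold changes were below 0. The unadjusted p was under 0.05 for 3, namely Cap-G (-0.69), SA (-0.66) and SMC3 (-0.52), and for 1623 of all 10913 genes. At 5 h barr was lower than at 1.5 h (-0.62, SE 0.17, adjusted p = 0.0283). It was the 1 of 10 subunits called in either direction, a count near the 11.3% of all genes. The call of barr was lost without NB 5 h replicate 3 and without any of the 3 NB libraries of 1.5 h. In the fit of all libraries, barr was called in opposite directions in GMCs and NBs between these ages, with the NB part resting on that call. Compared with 3 h, 3 of 10 were higher at 5 h, against 10.6% of all genes, namely Cap-G (0.89, adjusted p = 0.0395), SMC3 (0.78, adjusted p = 0.0387) and glu (0.72, adjusted p = 0.0318). The count was 6 without the NB library of 5 h replicate 1, and 0 without NB 3 h replicate 1 or 2 or without NB 5 h replicate 2 or 3.

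**Figure D3:**
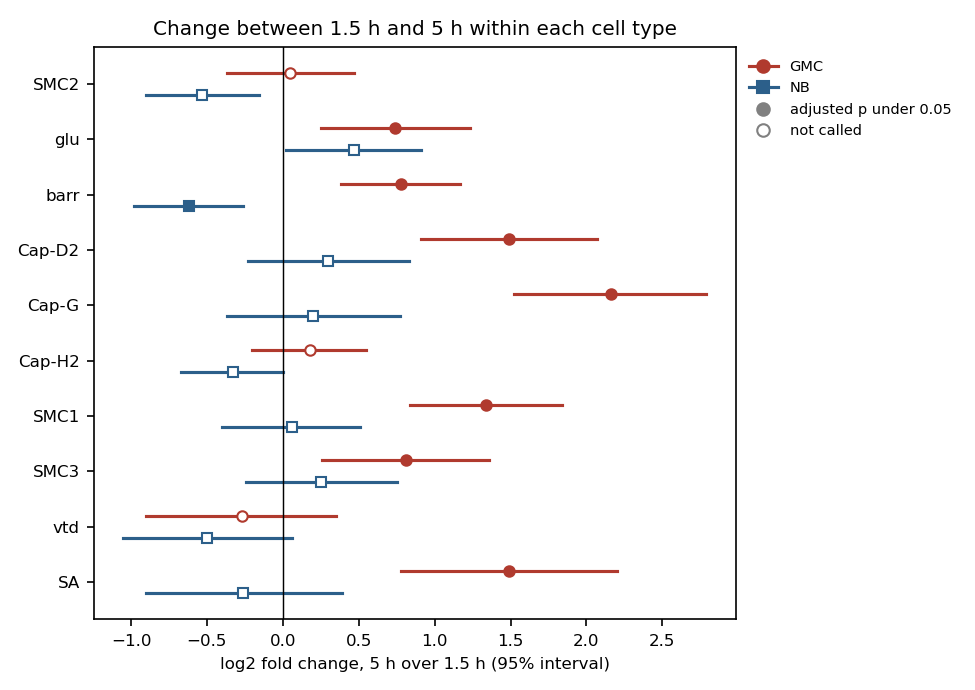
Log2 fold change of 5 h over 1.5 h (x axis) within GMCs (circles) and within NBs (squares) for each subunit, with 95% intervals as lines and filled symbols where the adjusted p is under 0.05. For barr the GMC value is 0.78 and the NB value -0.62.

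The balance between subunits of a ring was described within each library, on levels per kilobase of exon so that genes of different length can be set side by side. Cap-G over SMC2 was 0.247 to 0.362 in GMCs of 1.5 h and 0.135 to 0.207 in NBs, 0.393 to 0.531 in GMCs of 3 h and 0.0973 to 0.172 in NBs, and 1.21 to 1.25 in GMCs of 5 h and 0.171 to 0.333 in NBs. GMCs were above NBs in every library of each age. SMC1 over SMC3 was 2.23 to 2.38 in GMCs and 1.49 to 1.88 in NBs at 1.5 h. It was 3.07 to 3.95 in GMCs and 1.58 to 2.22 in NBs at 3 h, and 3.00 to 3.70 in GMCs and 1.28 to 1.58 in NBs at 5 h. This ratio too was without overlap at each age. The ratios are a description and were given no test.

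The ratio of SA over vtd overlapped at 1.5 h, at 0.345 to 0.427 in GMCs and 0.286 to 0.446 in NBs, and was 1.05 to 1.50 in GMCs and 0.236 to 0.496 in NBs at 5 h. Between the kleisins of the condensins, Cap-H2 over barr was 0.773 to 0.935 in GMCs and 0.409 to 0.416 in NBs at 1.5 h. At 5 h it was 0.536 to 0.618 in GMCs and 0.433 to 0.607 in NBs, with overlap. The sum of the condensin I genes over the sum of the cohesin genes lay below all NB libraries of the age in every GMC library. It was 1.33 to 1.45 in GMCs and 1.70 to 2.46 in NBs at 1.5 h, 1.15 to 1.25 in GMCs and 1.56 to 2.87 in NBs at 3 h, and 1.55 in both GMC libraries and 1.89 to 2.32 in NBs at 5 h.

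**Figure D4:**
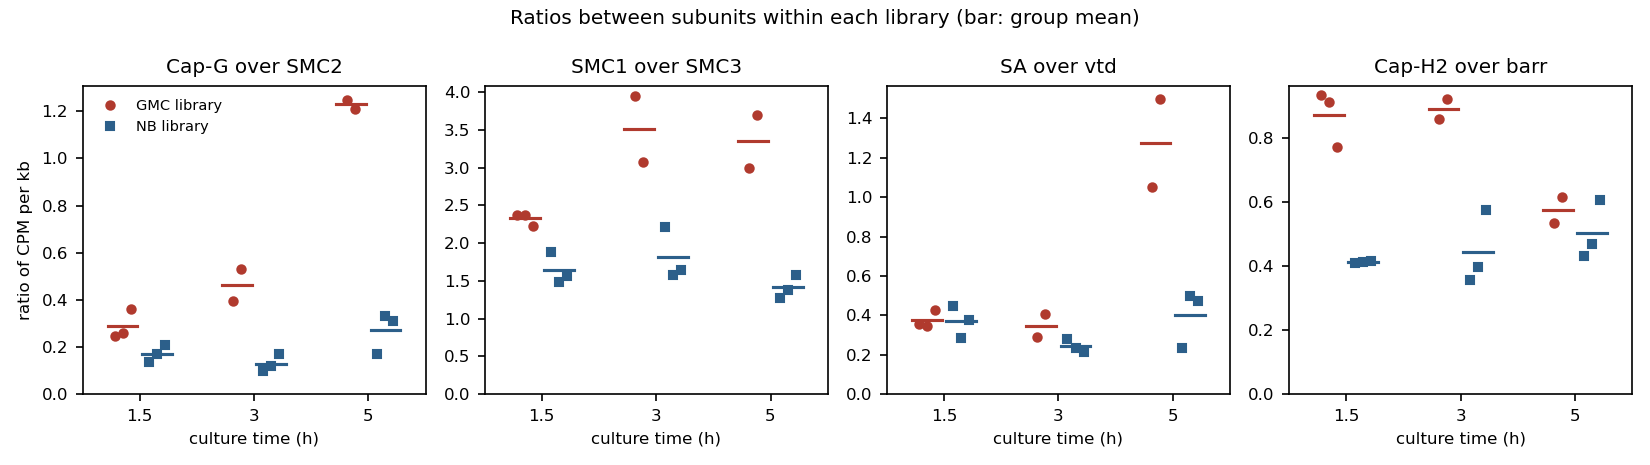
Ratios of levels per kilobase (y axes from 0) between subunits in each library against culture time, GMC circles left of NB squares, with group means as bars. Cap-G over SMC2 and SA over vtd are highest in the GMC libraries of 5 h, at 1.21 to 1.25 and 1.05 to 1.50, and Cap-H2 over barr parts the cell types at 1.5 and 3 h but not at 5 h.

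The exons of the 10 genes cover 2527 bp (vtd) to 4521 bp (glu). Per kilobase, SMC2 had the highest mean level of the 10 genes in all NB groups, at 184 ± 14.5 CPM per kb at 1.5 h, 154 ± 23.5 at 3 h and 128 ± 27.1 at 5 h (SD, n = 3 each). It was followed by vtd at 1.5 and 3 h and by glu at 5 h (122 ± 39.7 CPM per kb), which lay within the spread of SMC2. Cap-G was the lowest in NBs of 1.5 h (31.2 ± 4.23 CPM per kb) and 3 h (19.3 ± 2.59 CPM per kb), not apart from SMC3 (32.9 ± 4.50 and 22.9 ± 5.62 CPM per kb). In GMCs SMC2 led at 1.5 h with 137 ± 17.9 CPM per kb, and vtd was next with 118 ± 17.1 CPM per kb, within the spread. At 3 h vtd led GMCs with 148 ± 9.92 CPM per kb, above SMC2 with 121 ± 0.835 CPM per kb (n = 2). At 5 h SMC1 (200 ± 43.9), Cap-G (175 ± 19.3) and Cap-D2 (172 ± 15.5 CPM per kb) led, not apart from each other. SMC3 was lowest in GMCs at each age, at 33.8 ± 4.44, 28.2 ± 6.4 and 59.2 ± 4.35 CPM per kb.

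Among 7 regulators of cohesin, 0 were higher and 1 lower in GMCs at 1.5 h, 2 higher and 1 lower at 3 h, and 4 higher and 1 lower at 5 h. Over all genes, 8.59%, 10.2% and 14.8% were higher and 8.97%, 10.5% and 14.0% lower at these ages, so the 1 of 7 lower is near that share. The median log2 fold change was 0.04, 0.51 and 0.61, where all genes had 0.04, 0.07 and -0.12. The gene that was lower at each age was eco, the acetyltransferase that locks cohesin onto chromatids during replication. Its log2 fold changes were -0.63, -1.01 and -0.92 at 1.5, 3 and 5 h (adjusted p = 0.0196, 0.00210 and 0.00227), with 80.9 ± 3.82 CPM in GMCs of 5 h (n = 2) and 153 ± 37.5 CPM in NBs (n = 3). The cohesin protector dmt (dalmatian) was higher, at 0.66 at 3 h (adjusted p = 0.0155) and 1.28 at 5 h (adjusted p = 6.00e-05), with 550 ± 67.6 CPM in GMCs of 5 h and 226 ± 2.18 CPM in NBs. The releasing factor wapl was higher at 3 h (0.51, adjusted p = 0.0361) and 5 h (0.61, adjusted p = 0.0108). Both genes of the loader were called at 5 h, Nipped-B with 1.10 (adjusted p = 0.0413) and Mau2 with 1.19 (adjusted p = 0.00222). The Nipped-B call was close to the threshold, and its NB libraries of 5 h were widely spread. They ran from 122 to 419 CPM, against 474 to 687 CPM in GMCs. Not called at any age were pds5 (0.04, 0.07 and 0.29) and the acetyltransferase san (-0.03, -0.24 and -0.05).

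Of 4 genes that cut or guard cohesin at anaphase, 1 was higher in GMCs at 5 h, where 14.8% of all genes were higher. This gene was the separase subunit Sse (0.98, adjusted p = 0.00339). Its partner thr (-0.64, -0.36 and 0.23 at 1.5, 3 and 5 h), the securin pim (-0.17, -0.16 and -0.07) and the shugoshin mei-S332 (-0.19, -0.32 and 0.24) were not called. Among 3 genes that act on the Cap-H2 protein, edgeR called 0 at 1.5 and 3 h, with 1 at an unadjusted p under 0.05 at each age, and DESeq2 called 1 at 1.5 h and 0 at 3 h. At 5 h MRG15, which brings Cap-H2 to chromatin, was higher (1.04, adjusted p = 0.00180), as was slmb, the ubiquitin ligase subunit that marks Cap-H2 for degradation (0.68, adjusted p = 0.0145). These were 2 of 3, against 14.8% of all genes. The kinase gene CkIalpha was not called (-0.47, -0.37 and -0.01). Of the exon sequence of MRG15, 10.9% overlaps CG4338 and l(3)neo43.

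**Figure D5:**
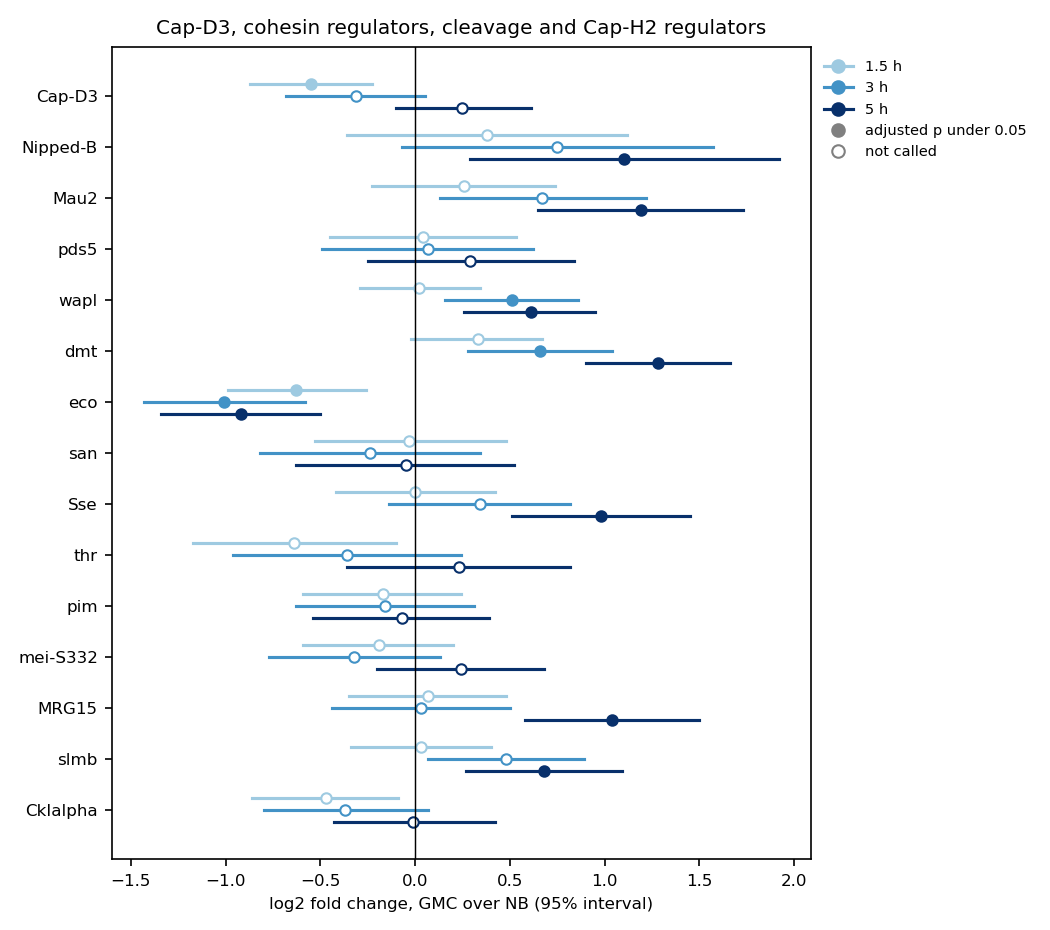
Log2 fold change of GMCs over NBs (x axis) at 1.5, 3 and 5 h for Cap-D3, cohesin regulators, cohesin cleavage and protection genes and regulators of Cap-H2, with 95% intervals as lines and filled points where the adjusted p is under 0.05. The eco gene lies at -0.63, -1.01 and -0.92, and dmt, Nipped-B and Mau2 are at 1.28, 1.10 and 1.19 at 5 h.

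The third SMC complex, SMC5/6, which acts in DNA repair, was covered by 7 genes. Of these, edgeR called 0 at 1.5 h (4 at an unadjusted p under 0.05), 1 lower at 3 h and 3 lower at 5 h, and DESeq2 called 1, 2 and 3. The share of all genes called lower by edgeR was 8.97%, 10.5% and 14.0%, and the 1 of 7 at 3 h is near it. The SMC6 gene jnj was lower at 3 h (-0.85, adjusted p = 0.0261). Lower at 5 h were Nse1 (-1.0, adjusted p = 0.0127), MAGE (-0.76, adjusted p = 0.0319) and the low-abundance gene qjt (-1.96, adjusted p = 0.0129). SMC5 (-0.47, -0.41 and 0.38 at 1.5, 3 and 5 h), cerv (0.17, 0.04 and 0.54) and Nse4 (-0.40, -0.67 and -0.36) were not called. Of 6 genes of meiotic cohesion, 5 were matched and 3 had enough reads to be tested. At 1.5, 3 and 5 h edgeR called 0 of these 3, with 1, 0 and 0 at an unadjusted p under 0.05, and DESeq2 called 1, 0 and 0. Of them, sunn had -0.77, -0.53 and 0.05, and c(2)M had 0.78, 0.23 and -0.70 at 1.5, 3 and 5 h.

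Of 9 genes for chromosome architecture other than the rings, 3 were higher in GMCs at 1.5 h, 6 at 3 h and 7 at 5 h, against 8.59%, 10.2% and 14.8% of all genes. No gene of this list was lower by edgeR, and the medians were 0.44, 0.92 and 1.05, against 0.04, 0.07 and -0.12 for all genes. Chro (chromator), pzg (Z4) and Cp190 are examples, with log2 fold changes of 1.77, 2.25 and 1.55 at 5 h (adjusted p = 1.74e-06, 1.81e-06 and 2.24e-05). Of 15 mitosis genes, 0 were higher and 8 lower at 1.5 h, 1 and 8 at 3 h, and 3 and 6 at 5 h, with medians of -0.51, -0.64 and -0.30. The share of all genes called lower was 8.97%, 10.5% and 14.0% at these ages, and the 3 of 15 higher at 5 h are near the 14.8% of all genes called higher. CycB3, a mitotic cyclin, had -2.42 at 3 h (adjusted p = 8.10e-07), and stg, the Cdc25 phosphatase that starts mitosis, -2.50 (adjusted p = 2.45e-05). Of 12 replication genes, 7, 10 and 12 were lower in GMCs at 1.5, 3 and 5 h, against the same shares of all genes, and none was higher by edgeR, with medians of -0.61, -1.15 and -1.55.

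The genes most like each subunit over the 16 libraries were found by the root mean square difference of centred log2 CPM. For Cap-G they were pzg (0.23), a6 (0.27) and PTP-ER (0.28), where the median gene was at 0.99. For SMC1 they were Cp190 (0.17), Su(H) (0.17) and CG7369 (0.20), with the median gene at 0.79. For SA they were Thd1 (0.22), Su(var)3-7 (0.27) and mud (0.28), for Cap-H2 ogre (0.15), fl(2)d (0.16) and CG18809 (0.18), and for barr RanGAP (0.14), Slu7 (0.15) and Mps1 (0.16). Among the subunits themselves, Cap-D2 and SMC3 were the closest pair (0.22), before SMC1 and SA (0.27), glu and SMC3 (0.29) and Cap-G and SMC1 (0.30). Cap-G and SMC2 were the farthest apart (1.03). Of the 4 closest pairs, 3 joined a condensin gene with a cohesin gene. Such mixed pairs are common among all possible pairs of the subunits, and the 2 shares were not compared. The next closest, barr and SMC2 (0.32), lay within condensin. The libraries share runs and depth, so these values are a description.

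Markers of other cells were read beside these results. The 7 glial markers summed to 1040 to 1070 CPM in GMCs of 5 h and 518 to 647 CPM in NBs. At 5 h 3 of 7 were called higher, against 14.8% of all genes. The genes called were Eaat1, at 671 to 681 CPM in GMCs of 5 h and 211 to 299 CPM in NBs, gcm, at 16.8 to 26.2 CPM in GMCs and 1.04 to 2.19 CPM in NBs, and moody, at 11.5 to 14.1 CPM in GMCs and 3.16 to 9.05 CPM in NBs. The glial gene repo, which was not called, stood at 0.965 to 1.01 CPM in GMCs of 5 h and 1.32 to 3.43 CPM in NBs. At 1.5 h the glial sum was 576 to 770 CPM in GMCs and 675 to 822 CPM in NBs, and at 3 h 871 to 872 CPM in GMCs and 631 to 767 CPM in NBs. Much of the sum was Eaat1, at 268 to 370 CPM in GMCs of 1.5 h and 366 to 439 CPM in NBs. By edgeR 2 of 7 glial markers were higher and 0 lower at 1.5 h and again at 3 h. Over all genes 8.59% and 10.2% were higher at these ages. The median log2 fold change of the 7 was 1.02, 0.39 and 0.09 at 1.5, 3 and 5 h. The 6 type II lineage markers summed to 144 to 163 CPM in GMCs of 5 h and 45.2 to 68.4 CPM in NBs. At this age 4 of 6 were called higher, against 14.8% of all genes. At 3 h the sums were 76.4 to 77.8 CPM in GMCs and 33.1 to 36.2 CPM in NBs, with 4 higher and 1 lower. At 1.5 h they were 53 to 65.2 CPM in GMCs and 52.2 to 55.2 CPM in NBs, with 2 higher and 1 lower. Over all genes 10.2% were higher and 10.5% lower at 3 h, and 8.59% and 8.97% at 1.5 h. Hemocyte and fat body markers, 8 genes, came to 8.19 to 10.7 CPM in GMCs of 5 h and 14.1 to 58.8 CPM in NBs. At 1.5 h these came to 12.7 to 16.5 CPM in GMCs and 9.33 to 14.6 CPM in NBs, and at 3 h to 79.8 to 90.4 CPM in GMCs and 20.9 to 97.1 CPM in NBs. Of the 7 of these genes that were tested, edgeR called 0 higher in GMCs at 1.5, 3 and 5 h. It called 0, 1 and 2 lower, against 8.97%, 10.5% and 14.0% of all genes. At 3 h srp, a hemocyte and fat body factor, was at 29.4 to 64.2 CPM in GMCs and 11.5 to 20.2 CPM in NBs and was not called (1.59, adjusted p = 0.209). None of the genes in these lists was at 0 in all libraries of a group. The part of such cells in the differences of the subunits was not tested.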

How the data were processed

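Poly(A) RNA of 16 libraries was counted per gene by the authors, and the deposited count of reads is a whole number for 16364 genes, with no normalization. The tools named per the submitters' processing notes, without their roles, are DESeq2 1.12.4, HTSeq 0.6.1, TopHat2 2.1.1, BWA 0.7.12 and bedtools 2.26.0. The sources used here do not give the genome build, annotation or strand setting. Reads naming no gene (9.20% to 17.7% in no feature, 1.42% to 2.09% ambiguous, 21.7% to 33.4% not unique) stayed out of library sizes. The authors' deposited comparison tables hold a mean signal across libraries (per the file headers) and DESeq2's fold change, error, test score and p-value, read here as score columns because some cells are empty. Gene positions and exon lengths come from Ensembl release 115 (BDGP6), where 16208 of the genes were found.

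The counts were fitted in R 4.3.3 by edgeR 4.0.16 with limma 3.58.1, using its quasi-likelihood method on the 16 libraries in 6 groups, TMM scaling, and filterByExpr (minimum count 10, total 15), which left 10913 genes and dropped 5451, with a common dispersion of 0.0782. P-values are two-sided and Benjamini-Hochberg adjusted over all genes kept, with calls under 0.05 in 12 comparisons. Levels are CPM on TMM-scaled sizes. Standard errors and 95% intervals come from the same fit. Where a group of 2 was cut to 1 library, that library is taken to vary like the others. No 2 libraries held identical counts.

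The subunits and the other gene lists were chosen with earlier results of these data known. All 10 subunits are named, with the genes of the condensin II, cohesin regulator, cleavage, SMC5/6 and Cap-H2 regulator lists above a minimum level (qjt, named beside its count, is under it), and up to 3 called genes of each other list by smallest adjusted p. Likeness was measured over genes averaging 20 CPM or more, as the 3 smallest root mean square differences of centred log2 CPM (prior count 2), and 3 neighbours are given for 5 of the subunits. Alternatives were median-ratio scaling, scaling without CR43283 (0.524% to 27.5% of a library's reads), no low-count filter, DESeq2 1.42.0, only the groups compared, a replicate block, removal of a gene-length trend and each library left out. A fit without the 5 h libraries was added after seeing the data. A planned search for promoter motifs was not run, and no sequences were used here.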

Additional observations from a re-analysis of the deposited data

Results flagged for a closer look

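The difference between GMCs and NBs changed between ages for some subunits, by the interaction test in edgeR's quasi-likelihood fit of all libraries. Between 1.5 and 5 h the log2 difference grew by 1.96 for Cap-G, 1.75 for SA, 1.39 for barr, 1.28 for SMC1 and 1.19 for Cap-D2. Between 3 and 5 h it grew by 1.17 for barr. Each age was its own sequencing run, so age and run cannot be told apart. No group held enough libraries for a test of single outlying samples.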

How the results depend on the processing

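At 3 and 5 h the count of subunits called between GMCs and NBs stayed within 1.5 times 4 and 6 under every alternative. At 1.5 h it was 2 in place of 1 with scaling without CR43283, with only the groups compared, with the replicate block and without the 5 h libraries. From 3 to 5 h 0 subunits were called with only the groups compared. For GMCs of 3 h over 1.5 h that setting gave 1. For NBs of 5 h over 1.5 h the count was 2 with scaling without CR43283, DESeq2, only the groups compared or the replicate block, and 3 with the length trend removed. For NBs of 5 h over 3 h it was 1 without CR43283, 0 with only the groups compared and 5 with the block. With single libraries left out, the counts of subunits ran from 2 to 6 (1.5 to 5 h) and 0 to 1 (3 to 5 h) for the changes of the difference, from 1 to 6 for GMCs of 5 h over 3 h, from 0 to 2 for NBs of 5 h over 1.5 h and from 0 to 6 for NBs of 5 h over 3 h.

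Over all genes, only the groups compared gave 3001 calls between GMCs and NBs at 1.5 h in place of 1916, 16 for the change from 3 to 5 h in place of 442, 1589 for GMCs of 3 h over 1.5 h in place of 323, 152 for NBs of 3 h over 1.5 h in place of 11, and 40 for NBs of 5 h over 3 h in place of 1497. DESeq2 gave 32 for the change from 1.5 to 3 h, 2165 from 1.5 to 5 h and 1184 from 3 to 5 h, 920 for GMCs of 3 h over 1.5 h, and 225 and 1924 for NBs of 3 h and 5 h over 1.5 h. Removing the length trend gave 803 (3 to 5 h), 637 (GMCs, 3 h over 1.5 h) and 43 (NBs, 3 h over 1.5 h), scaling without CR43283 742 (3 to 5 h), and no filter 17 (NBs, 3 h over 1.5 h). With libraries left out, calls over all genes ran from 1157 to 1458, 1095 to 2183 and 1742 to 3195 between GMCs and NBs at 1.5, 3 and 5 h. They ran from 719 to 1876 and 38 to 724 for the changes to 5 h from 1.5 and 3 h, from 4 to 102, 1627 to 2749 and 1212 to 2200 in GMCs (3 over 1.5, 5 over 1.5 and 5 over 3 h), and from 0 to 3, 461 to 2285 and 593 to 3587 in NBs. The causes were not tested.

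Values near 0 changed sign. Without the low-count filter SMC3 and vtd were at -0.02 at 1.5 h and glu at -0.02 at 5 h, and with the length trend removed SMC3 was at -0.01 and glu at -0.07. Leaving out single libraries gave -0.07 to 0.14 for SMC3, -0.19 to 0.21 for vtd and -0.03 to 0.24 for SA at 1.5 h, -0.03 to 0.37 for Cap-D2 and -0.20 to 0.18 for barr at 3 h, and -0.24 to 0.28 for glu at 5 h. Scaling without CR43283 moved the median of all genes at 3 h by -0.11, with 923 genes higher and 1460 lower in place of 1110 and 1145.

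Whether replicate numbers pair the libraries could not be settled. Deviations from the group mean correlated at -0.16 to 0.08 over 7 pairs of libraries with the same number. Those with other numbers correlated at -0.16 to 0.16 over 14 pairs. In a group of 2 libraries the deviations mirror each other, so at 3 and 5 h each correlation recurs with the opposite sign. The replicate block called SMC1 at 1.5 h (0.55, adjusted p = 0.0333) and SMC3 at 5 h (0.64, adjusted p = 0.0453), and over all genes gave 1 call for the change from 1.5 to 3 h, 148 from 3 to 5 h and 24 for NBs of 3 h over 1.5 h.

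Groups of 2 or 3 libraries limit these comparisons: the 95% interval of a subunit's difference between GMCs and NBs was 0.68 to 1.43 wide on the log2 scale, and a difference that was not called may lie anywhere within its interval.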
